A study of Mus musculus with 2 samples.

Results

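Small nucleolar RNAs (snoRNAs) with a Snora or Snord symbol were described in total RNA of mouse embryonic stem cells. Members were the genes of the deposited tables whose identifier carries a symbol starting with Snora or Snord in the GENCODE M21 annotation, a rule that uses symbols and not expression values. The rule gave 138 of 43346 genes, of which 41 were H/ACA box RNAs (Snora) and 97 were C/D box RNAs (Snord). Together they carry 137 distinct symbols, because Snora43 names 2 rows. ES-E14 is a male stem cell line of mouse strain 129/Ola, derived from an embryo, and the labels give neither a genetic change nor a treatment. The study has 1 group of 2 total RNA-seq libraries, numbered as biological replicates 2 and 1, for which the labels cite 1 source sample, so their spread may be technical. The libraries held 45573512 expected counts on genes in replicate 2 and 43163300 in replicate 1. With 1 library on each side, no test was made between them.

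H/ACA box RNAs guide the conversion of uridine to pseudouridine, and C/D box RNAs guide methylation of the ribose, mostly in ribosomal RNA. A few members act in the cleavage of the ribosomal RNA precursor instead of its modification. Most mammalian snoRNAs are cut from introns of host genes, many of which encode ribosomal proteins or are noncoding snoRNA host genes (Snhg). Each class works with its own set of core proteins, built around the pseudouridine synthase dyskerin (Dkc1) for H/ACA RNAs and the methyltransferase fibrillarin (Fbl) for C/D RNAs.

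The members whose counts and lengths shaped the comparison are printed from the GENCODE M21 transcripts (build GRCm38), 5′ to 3′ on the RNA strand. In the H/ACA RNAs the capitals mark ACA placed 3 bases before the 3′ end. In the C/D RNAs they mark the first TGATGA (C box) within the first 20 bases and the last CTGA (D box) within the last 20 bases. Snora73b, at chr4:132352322-132352526 (minus strand), and Snora73a, at chr4:132352775-132352979 (minus strand), had the highest counts of all members and lie in the noncoding host gene Snhg3. Snora52, in the ribosomal protein gene Rplp2 at chr7:141448803-141448939 (plus strand), Snora61, in Snhg12 at chr4:132310240-132310369 (plus strand), and Snora44, in Snhg12 at chr4:132309941-132310069 (plus strand), are H/ACA RNAs of ordinary size. Snora44 shows no ACA in that place and so has no capitals.
Snora73b: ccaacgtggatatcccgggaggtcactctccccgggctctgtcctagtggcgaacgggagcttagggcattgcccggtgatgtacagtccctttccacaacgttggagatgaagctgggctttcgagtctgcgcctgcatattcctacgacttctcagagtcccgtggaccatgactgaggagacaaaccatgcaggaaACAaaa
Snora73a: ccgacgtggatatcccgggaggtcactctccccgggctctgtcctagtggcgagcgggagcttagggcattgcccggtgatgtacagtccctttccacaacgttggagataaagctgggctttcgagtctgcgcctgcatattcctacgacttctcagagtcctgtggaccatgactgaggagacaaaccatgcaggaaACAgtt
Snora52: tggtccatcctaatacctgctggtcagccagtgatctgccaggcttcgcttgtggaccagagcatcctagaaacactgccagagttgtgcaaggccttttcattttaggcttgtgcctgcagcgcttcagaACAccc
Snora61: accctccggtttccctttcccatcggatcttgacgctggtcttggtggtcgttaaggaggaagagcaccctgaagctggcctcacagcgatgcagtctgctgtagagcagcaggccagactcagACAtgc
Snora44: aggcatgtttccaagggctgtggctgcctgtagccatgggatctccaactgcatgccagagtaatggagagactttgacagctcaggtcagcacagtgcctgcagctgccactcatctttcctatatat

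Of the C/D RNAs, Snord17, in an intron of Snx5 at chr2:144265979-144266216 (minus strand), was the longest and had the highest count of its class, and Snord15b, in Rps3 at chr7:99479563-99479707 (minus strand), had the highest deposited TPM of any member in replicate 2. Snord118, at chr11:69073427-69073561 (plus strand), has no host gene; the searched letters mark only its D box. Snord47, in Gas5 at chr1:161038082-161038158 (plus strand), and Snord99, in Snhg12 at chr4:132310691-132310764 (plus strand), are C/D RNAs of ordinary size with an expected count of 0 in both libraries.
Snord17: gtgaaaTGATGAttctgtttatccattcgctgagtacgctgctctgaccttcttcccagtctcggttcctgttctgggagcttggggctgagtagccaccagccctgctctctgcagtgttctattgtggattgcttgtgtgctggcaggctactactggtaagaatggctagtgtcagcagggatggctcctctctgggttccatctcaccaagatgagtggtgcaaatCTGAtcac
Snord15b: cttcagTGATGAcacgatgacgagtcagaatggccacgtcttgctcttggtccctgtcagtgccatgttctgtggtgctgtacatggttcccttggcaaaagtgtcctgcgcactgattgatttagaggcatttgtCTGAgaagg
Snord118: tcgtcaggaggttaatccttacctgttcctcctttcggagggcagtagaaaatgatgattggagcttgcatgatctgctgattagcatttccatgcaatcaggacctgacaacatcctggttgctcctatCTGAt
Snord47: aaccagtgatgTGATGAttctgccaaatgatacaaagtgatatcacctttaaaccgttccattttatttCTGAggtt
Snord99: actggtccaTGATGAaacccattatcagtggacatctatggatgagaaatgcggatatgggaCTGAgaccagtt

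The letters of the boxes followed the symbols. Both C and D boxes were found in 0 of 41 H/ACA RNAs and 67 of 97 C/D RNAs. They were found in 7 of 6899 other M21 transcripts of 60 to 250 bases (0.1015%). That set leaves out all transcripts typed as snoRNA, so snoRNA genes without a Snora or Snord symbol were not searched for boxes. The ACA was found in 34 of 41 H/ACA RNAs (82.9%) and 0 of 97 C/D RNAs, against 2.26% of those other transcripts. The looser H box, ANANNA in the middle part of the RNA, was found in 39 of 41 H/ACA RNAs and 61 of 97 C/D RNAs, and also in 62.7% of the other transcripts. A match is a description of the letters, not of a working box.

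The classes differed in how many members had any read. An expected count above 0 in at least 1 library was found for 35 of 41 H/ACA RNAs and 6 of 97 C/D RNAs, while 58.3% of all genes had one. With at least 10 counts in both libraries there were 29 members, made up of 25 H/ACA and 4 C/D RNAs, and 38.1% of all genes passed that limit. The 6 C/D RNAs with a count were Snord17, Snord15b, Snord15a, Snord22, Snord118 and Snord8. The 6 H/ACA RNAs at 0 in both libraries were Snora19, Snora20, Snora2b, Snora35, Snora36b and Snora75. A count of 0 allows up to 0.0658 CPM (expected counts scaled to 1000000 per library) in replicate 2 and 0.0695 CPM in replicate 1 (3 counts of the total; counting error only).

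Length moved with this difference. The annotated length had a median of 133 bases in H/ACA RNAs and 84 bases in C/D RNAs. The shortest gene of either table with a read was 108 bases long, and all 3266 shorter genes were at 0, whatever their class. Of the C/D RNAs, 87 of 97 were shorter than 108 bases, and of the 10 others 6 had a count. Snord8, of 110 bases, was the shortest member with a count, with 0 counts in replicate 2 and 1 count in replicate 1. The longest C/D RNA at 0 had 111 bases, while the H/ACA RNAs at 0 had 128 to 137 bases. For 87 of the 91 C/D RNAs at 0 the length thus lies where the tables hold reads for no gene, and such zeros give no measure of the RNA in the cells. Just above that limit reads were also rare. From 110 to under 120 bases a count was found for 1 of 4 C/D RNAs and 1 of 86 snoRNA genes without a Snora or Snord symbol. Among other genes it was 2 of 501 there, and 1 of 1208 from 100 to under 110 bases. The zeros of Snord23, Snord67, Snord89 and Snord90, of 109 to 111 bases, thus give little measure either. What part the length limit had in the class difference was not tested.

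**Figure D1:**
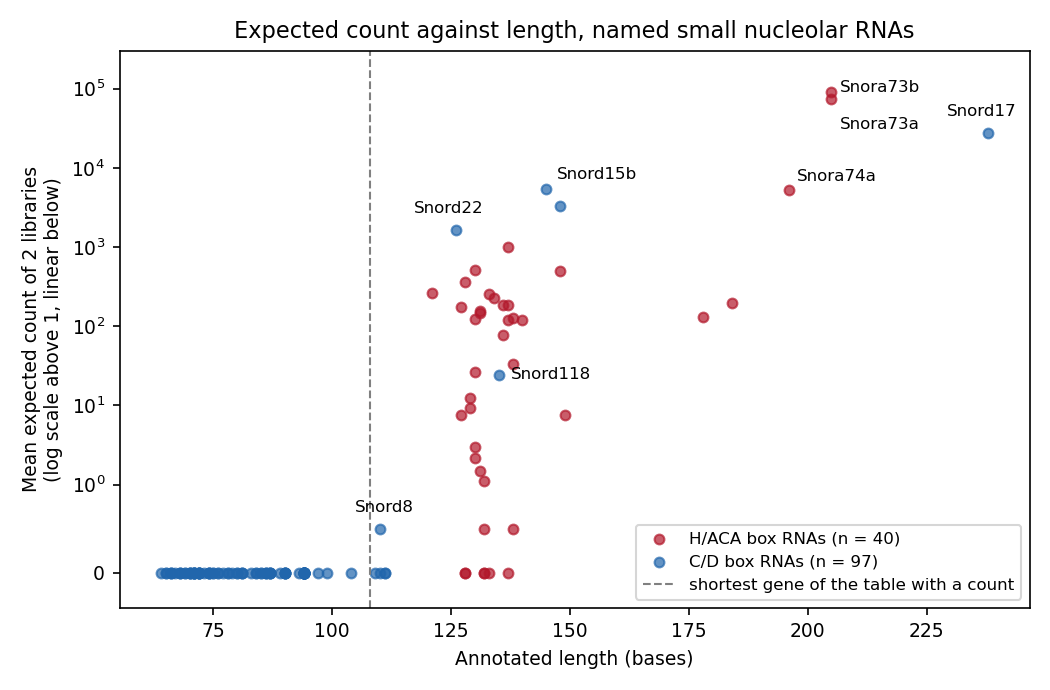
Mean expected count of the 2 libraries (vertical axis, log scale above 1 and linear below) against annotated length in bases for 40 H/ACA and 97 C/D box RNAs, without the long Snora43 model; each point is 1 gene, and the dashed line is the shortest gene with a count, 108 bases. Most C/D RNAs lie left of the line at 0, and those of 120 bases or more reach the counts of the H/ACA RNAs or exceed them, with Snord118 among the low ones.

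Among members of like length the order of the classes was the other way round. Between 120 and 150 bases there were 35 H/ACA and 4 C/D RNAs. The H/ACA RNAs had a median of 27 counts in replicate 2 and 42 in replicate 1, with a highest value of 790.3 and 1233. The 4 C/D RNAs had a median of 1931 counts in replicate 2 and 3033 in replicate 1, with a lowest value of 9 and 40 (Snord118) and a highest of 4598 and 6104 (Snord15b). Snord15b, Snord15a and Snord22 were above all 35 H/ACA RNAs in both libraries, and Snord118 was below the H/ACA median. In this window the H/ACA share of the members' counts was 29.5% in replicate 2 and 32.0% in replicate 1.

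As a level, CPM per kilobase of annotated length, the median over all members of H/ACA RNAs was 11.4 in replicate 2 and 25.3 in replicate 1, and that of C/D RNAs was 0 in both. H/ACA minus C/D, as a difference of medians of log2(level + 1), was 4.18 ± 0.764 (SD, n = 2 libraries). Among members of 120 to 150 bases the same difference was -5.84 in replicate 2 and -5.79 in replicate 1. Among the 25 H/ACA and 4 C/D RNAs with at least 10 counts in both libraries it was -4.27 in replicate 2 and -4.30 in replicate 1. The sign of the class difference thus depended on which members entered, and no test over genes was made, since members are not replicates.

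The highest H/ACA RNAs were the pair of long Snora73 copies, whose yeast counterpart is needed for processing of the small-subunit ribosomal RNA. Snora73b had 67591 counts in replicate 2 and 114619.9 in replicate 1. Snora73a had 58289 counts in replicate 2 and 87449 in replicate 1. Their sequences, printed above, match at 198 of 205 bases with 7 mismatches and no gap, so reads could be shared between them. The deposited posterior SD of the count was 1.94 and 3.26 reads for Snora73b and 3.36 and 5.21 for Snora73a in replicates 2 and 1. Both also overlap an exon of Gm17300 on the opposite strand, which had 3384 counts in replicate 2 and 12274 in replicate 1. Whether the counting used strand is not recorded in the labels or headers used here, so reads of the 2 strands cannot be told apart.

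Together Snora73b and Snora73a made up 75.5% of all members' counts in replicate 2 and 73.6% in replicate 1, and 90.7% and 89.1% of the H/ACA counts. Next among H/ACA RNAs was the row ENSMUSG00000097052.1, named Snora43, with 5863.5 counts in replicate 2 and 11194 in replicate 1. Its table length was 2056 bases in replicate 2 and 2204 in replicate 1, against 139 in M21, so those counts belong to a longer model than the RNA. The other Snora43 row (ENSMUSG00000064858.2), of 127 bases, had 147 counts in replicate 2 and 199 in replicate 1. Snora74a followed, with 3235 counts in replicate 2 and 7315 in replicate 1.

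Below these came H/ACA RNAs of ordinary size. Snora52 had 790.3 counts in replicate 2 and 1233 in replicate 1. Snora61 had 361 and 667 counts, Snora57 had 361 and 626, and Snora78 had 316 and 417, each in replicates 2 and 1. Snora26, the shortest H/ACA RNA with 121 bases, had 239.7 counts in replicate 2 and 281 in replicate 1. Snora9 had 169.9 and 334 counts, Snora23 had 132 and 263, and Snora21 had 133 and 236, in replicates 2 and 1. The 2 libraries were closer for Snora15, with 152 counts in replicate 2 and 162 in replicate 1. Snora24 had 104 counts in replicate 2 and 143 in replicate 1. Snora7a had 73 counts in replicate 2 and 167 in replicate 1. Snora70, with 89.3 and 149.7 counts, and Snora5c, with 58.1 and 98.9, had a TPM above 0 in replicate 1 only. The near-identical copies of Snora70 held more counts than it did, 531 in replicate 2 and 654 in replicate 1. All 23 H/ACA RNAs with at least 50 counts in 1 library had as many in the other. At the low end Snora62 had 4 counts in replicate 2 and 11 in replicate 1, and Snora65 had 0 in replicate 2 and 4.37 in replicate 1. Snora65, Snora69, Snora3, Snora41 and Snora47 had a count in replicate 1 and 0 in replicate 2.

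Among the C/D RNAs a single member led, with Snord17 at 69.8% of the class's counts in replicate 2 and 74.5% in replicate 1. Snord17 had 19554 counts in replicate 2 and 35638 in replicate 1. Snord15b had 4598 counts in replicate 2 and 6104 in replicate 1. Its neighbour Snord15a, in another part of Rps3, had 2344 in replicate 2 and 4270 in replicate 1. Snord22, which acts in maturation of the small-subunit RNA in frog oocytes, had 1518 counts in replicate 2 and 1796 in replicate 1. Snord118, needed for large-subunit RNA maturation in frog oocytes, had only 9 counts in replicate 2 and 40 in replicate 1, although it has 135 bases. Its near-identical copy in the genome, Gm24208, had 0 counts in both libraries.

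**Figure D2:**
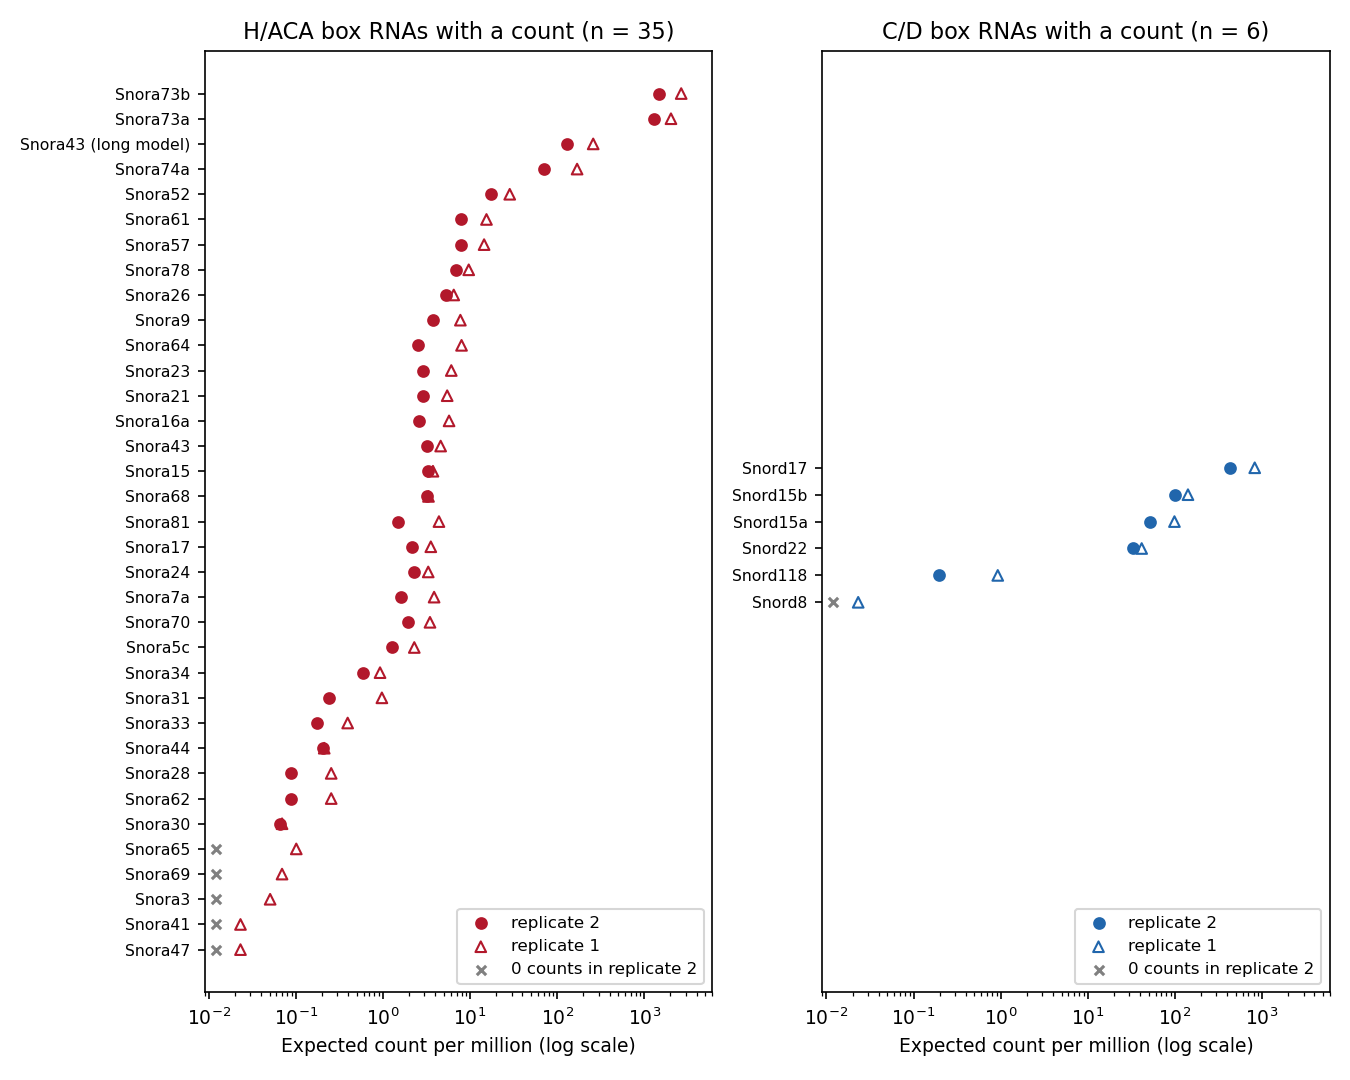
CPM (horizontal axis, log scale) of the 35 H/ACA RNAs (left) and 6 C/D RNAs (right) with a count; filled circles are replicate 2, open triangles replicate 1 and crosses 0 counts in replicate 2. Snora73b and Snora73a lie highest, Snord17 leads the C/D RNAs, and replicate 2 lies left of replicate 1 for all 41 members.

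As CPM per kilobase, the highest levels were 7235 in replicate 2 and 12954 in replicate 1 for Snora73b, and 6239 and 9883 for Snora73a. Snord17 came next with 1803 in replicate 2 and 3469 in replicate 1, and its range did not overlap that of either Snora73 copy. The ranges of Snora73b and Snora73a over the 2 libraries overlapped, although Snora73b was higher in each library. Snord15b had a level of 696 in replicate 2 and 975 in replicate 1, and Snora74a had 362 and 865. Snord15a had 348 and 668. The range of Snora74a overlapped those of both Snord15 RNAs, which did not overlap each other.

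By summed counts the H/ACA RNAs led. They held 138716 counts in replicate 2 and 226779 in replicate 1, against 28023 and 47848 for the C/D RNAs. The H/ACA share was 83.2% in replicate 2 (95% Wilson interval 83.0 to 83.4%) and 82.6% in replicate 1 (82.4 to 82.7%), with a mean of 82.9% ± 0.436 (SD, n = 2). Counting error alone is covered by these intervals. Without the long Snora43 model the share was 82.6% in replicate 2 and 81.8% in replicate 1. It rested on the Snora73 pair, without which it was 31.4% in replicate 2 and 34.1% in replicate 1. Without the members that overlap an exon of another gene, which removes both copies, the mean share was 4.41%. Without members that have a near-identical copy it was 29.8%. All members together took 0.366% of the counts in replicate 2 and 0.636% in replicate 1.

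The deposited TPM did not follow these counts, because it divides by an effective length, which is the annotated length less an allowance for fragment length. For genes over 20000 bases that allowance had a median of 159.7 bases in replicate 2 and 156 in replicate 1. Most members are shorter than that. The shortest member with an effective length above 0 had 138 bases in replicate 2 and 136 in replicate 1. TPM was listed at 0 with a count above 0 in a library for 26 members, of which 16 were so in both, while 1.3% of all genes were so in a library. The rows listed at TPM 0 held 4501 member counts in replicate 2 and 4621 in replicate 1.

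Snora52, of 137 bases, shows the step. It had 790.3 counts with an effective length of 0 and was listed at TPM 0 in replicate 2, and 1233 counts with an effective length of 1.15 bases and 13762 TPM in replicate 1. Snora61 and Snord22 were listed at TPM 0 in both libraries. At the other end Snord15b had an effective length of 1.90 bases in replicate 2 and 2.74 in replicate 1, and 32694 and 28654 TPM. Snora73b had an effective length of 45.4 and 48.8 bases and 20110 and 30219 TPM in replicates 2 and 1. Snord15b thus had rank 5 among the members by count and rank 1 by TPM in replicate 2. The H/ACA share of the members' TPM was 47.0% in replicate 2 and 63.0% in replicate 1, so that TPM put the classes in opposite order in the 2 libraries.

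**Figure D3:**
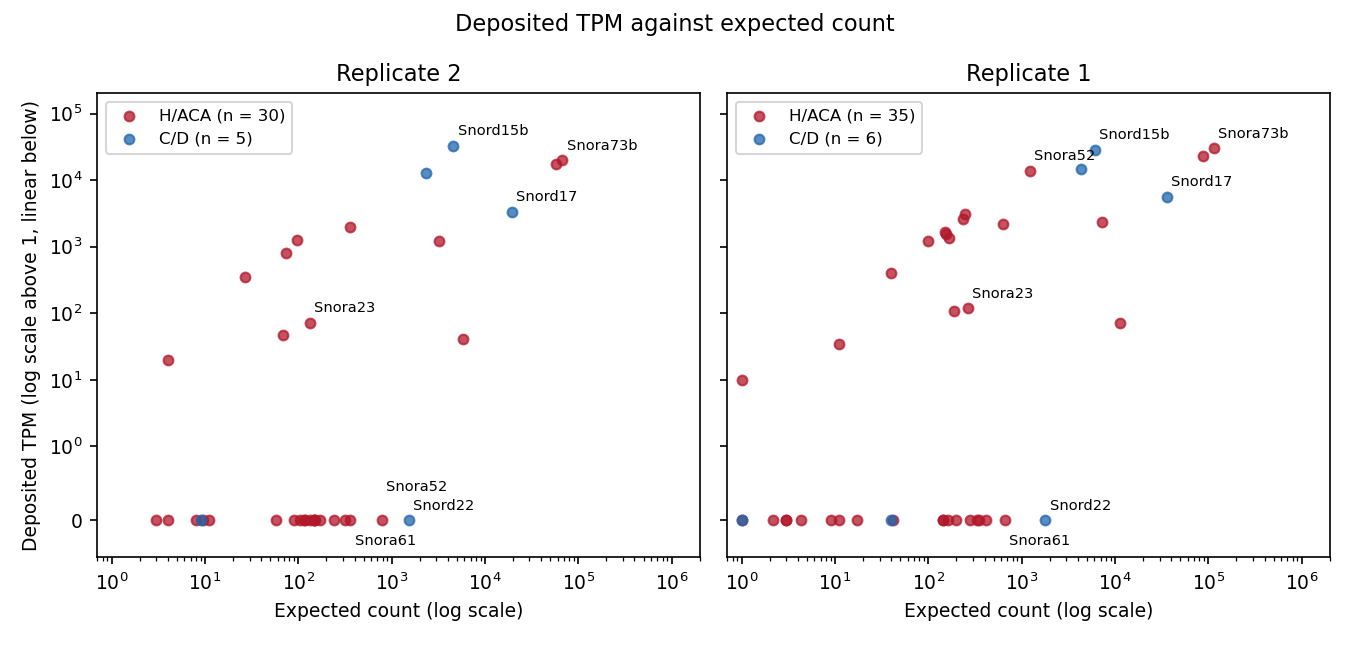
Deposited TPM (vertical axis, log scale above 1 and linear below) against expected count (log scale) for the members with a count in replicate 2 (left) and replicate 1 (right); red points are H/ACA and blue points C/D RNAs. A row of points at TPM 0 reaches 1518 counts in replicate 2 and 1796 in replicate 1 (Snord22), and Snora52 leaves that row in replicate 1.

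Members had lower shares of the library in replicate 2. In CPM, the summed members had a log2 ratio of -0.80 (replicate 2 over replicate 1), with -0.79 for H/ACA and -0.85 for C/D RNAs. Of the 27 members with at least 50 counts in a library, 27 were lower in replicate 2, with a median log2 ratio of -0.84. The ratios lay between -1.63 (Snora64, 114 and 345 counts in replicates 2 and 1) and -0.05 (Snora68, 147 and 144 counts). At least 2-fold lower were 8 of 27 (29.6%), against 2.97% of all genes past the same count limit. Among the 8 were the long Snora43 model and no C/D RNA on this scaling. Larger shares than all genes were found for other snoRNA genes and for non-snoRNA genes of over 150 and up to 250 bases. At least 2-fold lower were 9 of 40 snoRNA genes without a Snora or Snord symbol (22.5%). Of non-snoRNA genes, 8 of 42 of over 150 and up to 250 bases were so, and 0 of 3 of 120 to 150 bases. At least 2-fold higher were 0 of 27 members, against 6.37% of all genes. The 4 C/D RNAs past the limit lay between -0.94 (Snord17) and -0.32 (Snord22).

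The direction was the same under all 5 scalings tried, while the number at least 2-fold lower was larger under the other 4. It was 13 with edgeR's TMM factors, against 4.67% of all genes, and 12 with DESeq2's size factors, against 4.25%. Without the ribosomal RNA models in the total it was 14, against 5.23% of all genes, and scaled to protein-coding counts it was 14, against 5.28%. Of the 4 C/D RNAs, 2 (Snord17 and Snord15a) were at least 2-fold lower under each of these 4 scalings. Over all genes the median log2 ratio was 0.16, and -0.02 when scaled to protein-coding counts. Other snoRNA genes went the same way: 38 of 40 without a Snora or Snord symbol were lower, with a median of -0.61. Only 3 non-snoRNA genes of 120 to 150 bases passed the limit, with a median of 0.12. Non-snoRNA genes of over 150 and up to 250 bases had a median of -0.41 (29 of 42 lower), while those of over 250 and up to 500 bases had 0.34 and those over 500 bases 0.16. The members of over 150 and up to 250 bases had a median of -0.996 (n = 6) and those of 120 to 150 bases -0.75 (n = 20). With 2 bulk libraries, a technical difference between them, fewer cells of a type and less RNA per cell cannot be told apart.

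Other measures also moved between the libraries. The ribosomal RNA models Gm26917 and Gm42418 took 16.4% of counts in replicate 2 and 26.4% in replicate 1, and protein-coding genes took 62.7% and 55.3%. The models moved in opposite directions, with 5158043 counts in replicate 2 and 10189878 in replicate 1 for Gm26917, and 2309188 and 1211765 for Gm42418. All 7 stem cell markers were at 1 TPM or more in both libraries, among them Pou5f1 with 201 TPM in replicate 2 and 162 in replicate 1, and their summed level was 1211 and 1255 TPM. Of 6 feeder fibroblast markers, 4 were at least 2-fold higher in replicate 2, with a summed level of 143 TPM in replicate 2 and 46.2 in replicate 1, while Thy1 was lower (1.62 and 2.27 TPM in replicates 2 and 1), Dcn was at 0.19 and 0.06 TPM and Lum was at 0 in both. Of 4 neuron markers only Tubb3 was at 1 TPM or more in both libraries, and the summed level, 27.99 TPM in replicate 2 and 15.2 in replicate 1, was mostly Tubb3 (27.1 and 13.3 TPM). Map2 and Syp were lower in replicate 2, at 0.43 and 0.40 TPM, against 0.91 and 0.94 TPM in replicate 1. Their part in the members' lower share was not tested.

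**Figure D4:**
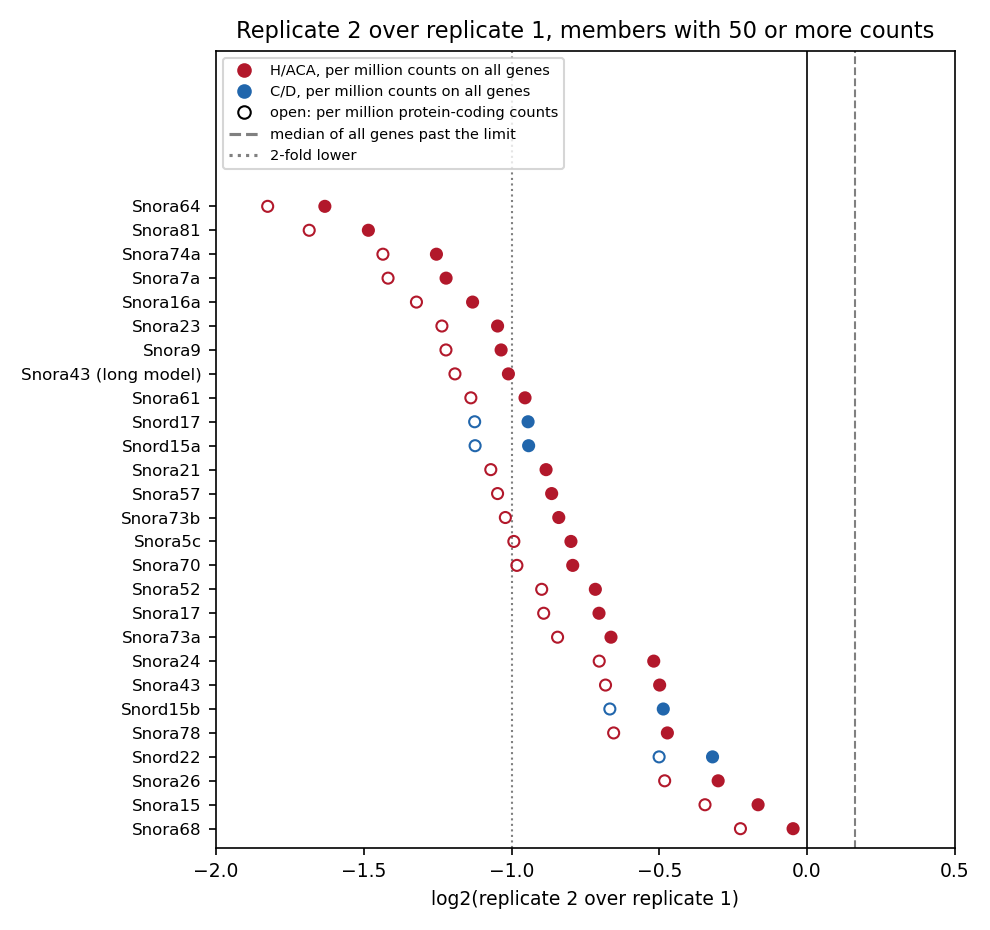
log2 of replicate 2 over replicate 1 (horizontal axis) for the 27 members with at least 50 counts in a library; filled points are scaled to the counts on all genes and open points to protein-coding counts, red for H/ACA and blue for C/D. All points lie below 0, from -1.63 to -0.05 for the filled ones, while the dashed line, the median of all genes, is at 0.16.

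Nearly all members lie inside another gene. A host gene on the same strand was found for 131 of 138 members, with 37 H/ACA RNAs in 33 hosts and 94 C/D RNAs in 54 hosts. Of the 131, 68 lie in an intron of at least 1 transcript of the host and overlap no exon of it. Another 62 are intronic or exonic depending on the transcript. The remaining 1, Snord116l12, lies within the span of Snhg14 but in no intron of a listed transcript, and it overlaps no exon. Ribosomal protein genes hold 11 H/ACA and 21 C/D RNAs. Without a host gene were Snora17, both Snora43 rows, Snora57, Snord104, Snord118 and Snord13. Of the 29 members with at least 10 counts in both libraries, 21 overlap an exon of another gene and 12 have a near-identical copy, which makes 24 with either. The deposited posterior SD of the count was 0 in both libraries for 8 of these 24, and above 0 in at least 1 library for the others.

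Both classes lie in 4 hosts, with 6 H/ACA RNAs, of which 5 had a count, and 4 C/D RNAs of at most 74 bases, of which 0 had one. These C/D RNAs are shorter than any gene with a read, so the classes cannot be compared within these hosts. Snhg12, a noncoding host with 63.3 TPM in replicate 2 and 83.3 in replicate 1, holds Snora61, Snora16a, Snora44 and Snord99. Snora61 had 361 counts in replicate 2 and 667 in replicate 1, Snora16a had 117 and 248, and Snora44 had 9.45 and 9.15, while Snord99, of 74 bases, was at 0. Snora61 and Snora44 thus differed in count by more than the 2 libraries did for either. In Eif4a2, Snora81 had 68.7 counts in replicate 2 and 189.8 in replicate 1, and Snord2, of 69 bases, was at 0.

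Hosts read at high levels could still hold members at 0. Rpl13a, a ribosomal protein gene with 967 TPM in replicate 2 and 944 in replicate 1, holds Snord32a, Snord33, Snord34 and Snord35a, and Gas5, a noncoding host with 66.4 and 88.1 TPM, holds Snord47, Snord78 and Snord80. All 7 were at 0 in both libraries, and all have 90 bases or fewer. The 17 Snord116 copies, which lie in the imprinted noncoding gene Snhg14 and are known from brain, have 94 bases each and were at 0, with Snhg14 at 12.5 TPM in replicate 2 and 7.89 in replicate 1. Snord64 and Snord107, from the same imprinted region, have 67 and 70 bases and were at 0, as were the 4 Snord14 RNAs of 86 to 90 bases (of which Snord14c, Snord14d and Snord14e lie in Hspa8), Snord104 of 70 bases and Snord13 of 104 bases. Also at 0 were Snord1a, Snord1b and Snord1c in 1810032O08Rik, Snord49a, Snord49b and Snord65 in 2410006H16Rik, Snord42a, Snord42b and Snord4a in Rpl23a, and Snord37, the shortest C/D RNA with 64 bases. All of these RNAs are shorter than 108 bases, the length of the shortest gene with a read, so their zeros carry no statement on expression.

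Among H/ACA RNAs, without the long Snora43 model, 11 in hosts typed as noncoding had a median of 239.7 counts in replicate 2 and 334 in replicate 1. The kinds of host follow the M21 gene type alone, which lists Cct6a, the host of Snora15, as a processed transcript. The 11 in ribosomal protein hosts had a median of 73 and 144 counts, and the 15 in other protein-coding hosts a median of 0 and 1, in replicates 2 and 1. The ranges overlapped, from 9.45 to 67591, 0 to 790.3 and 0 to 132 counts in replicate 2. The 6 H/ACA RNAs at 0 all lie in other protein-coding hosts; one of them, Snora35, lies in the serotonin receptor gene Htr2c, whose TPM was 0 in both libraries. The level per kilobase showed little relation to the TPM of the host, with Spearman's rho of 0.04 in replicate 2 and 0.16 in replicate 1 over 33 H/ACA RNAs in 29 hosts, a description over genes that share libraries and hosts.

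**Figure D5:**
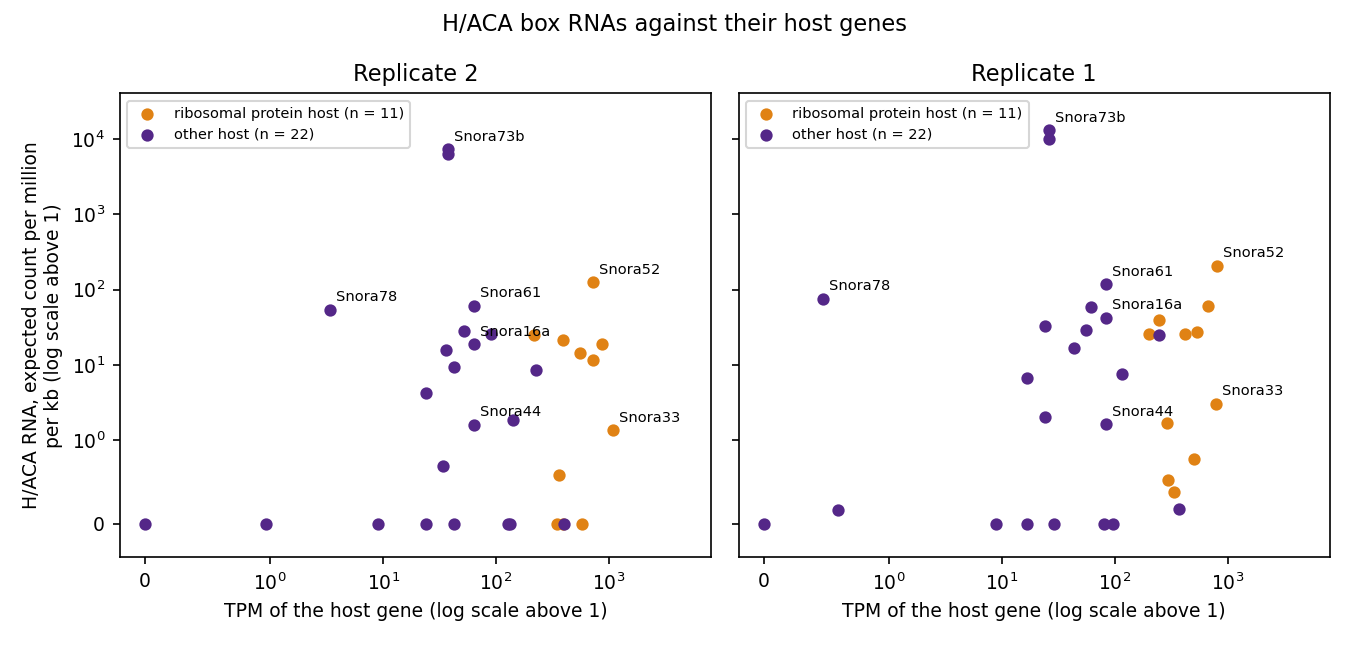
CPM per kilobase of 33 H/ACA RNAs (vertical axis) against the TPM of their host gene (horizontal axis), both on a log scale above 1 and linear below, in replicate 2 (left) and replicate 1 (right); orange points have a ribosomal protein host (n = 11) and purple points another host (n = 22). Snora73b stands highest at a host TPM of 37.1 in replicate 2 and 26.2 in replicate 1, and Snora33 is low in Rps12, at 1086 and 782 TPM.

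Genes of the proteins that carry the snoRNAs were read in both libraries, as RNA and not as protein. Of the H/ACA core genes, 4 of 4 were at 1 TPM or more in both. Dkc1, which encodes the pseudouridine synthase, was at 47.0 TPM in replicate 2 and 45.9 in replicate 1. Gar1, its small partner, was at 17.2 TPM in replicate 2 and 11.8 in replicate 1, Nhp2 at 106.8 and 89.7, and Nop10 at 71.1 and 65.1. Of the C/D core genes, 4 of 4 were at 1 TPM or more in both. Fbl, which encodes the methyltransferase, was at 37.2 TPM in replicate 2 and 20.99 in replicate 1. Nop56 had 283 TPM in replicate 2 and 304 in replicate 1, Nop58 had 131 and 85.1, and Snu13 had 96.7 and 62.4. The 16 genes of assembly and maturation factors were all at 1 TPM or more in both, between 3.13 and 45.1 TPM in replicate 2. None of these core and assembly genes was 2-fold apart between the libraries in CPM, while in TPM Znhit6, an assembly factor of C/D RNAs, was at 4.80 in replicate 2 and 2.20 in replicate 1.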

How the data were processed

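Total RNA-seq tables of 2 ES-E14 libraries were used. Per the deposited text files, the assembly was mm10 and the annotation M4, and each library was quantified alone from transcriptome alignments. The sources used here name neither the aligner nor the quantifier. The deposited tables hold, per the file headers, an expected count per gene (fractional where reads are shared), TPM and FPKM, and the authors' signal values (effective length, posterior mean TPM, interval bounds of an unstated level). No step of the authors beyond these is recorded. Depth was 45573512 (replicate 2) and 43163300 (replicate 1) expected counts on genes, and the labels give a size range of 300 to 350 with no unit.

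Symbols, coordinates, hosts and sequences came from GENCODE M21 on GRCm38, the assembly of mm10; 42462 of 43346 genes matched and 884 did not. M21 gives such symbols to 141 genes, 3 of which have no row and are not analysed here. Left out of all totals were 97 spike-in rows and 26248 rows named by a number. Snora17 and 1 Snora43 row have another version and length in the tables than in M21.

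CPM used the sum of expected counts on genes, and levels were divided by annotated length. Log ratios added 0.1 CPM, and log levels added 1. A host is a gene on the same strand that contains the member. Near-identical copies were sought with BLAST (90% identity over 90% of the member). Scaling factors were computed with edgeR 4.0.16 and DESeq2 1.42.0 in R 4.3.3. Counts were rounded to whole numbers for the DESeq2 size factors and the Wilson intervals, and not for the edgeR factors. Sequences were handled with Biopython 1.88 and BLAST 2.17.0, values with pandas 2.3.3, scipy 1.17.1 and numpy 2.4.6 under Python 3.11.15, and figures with matplotlib 3.10.9. The ratio of the libraries and the H/ACA share were tested on simulated counts. The other steps were not simulated.

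No test was made: the study has 1 group, and classes are sets of genes. The rule for members uses symbols alone, but it, the lists and the limits were chosen with earlier results of these data known. Named were, for each class, the 12 highest members (6 for C/D RNAs, the others being tied at 0 and given as counts), the 5 highest and 5 lowest ratios, the longest and shortest, members at TPM 0 with at least 50 counts, every member of a host with at least 3, and a fixed list; further H/ACA RNAs at 0 or in 1 library were named after their values were seen. Snora74a is given without its sequence. Alternatives for scaling, length, count limit, unit and members are given in the closing section; leaving out the long Snora43 model, the Snora73 pair, members with a copy and members outside 120 to 150 bases were added after seeing the data.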

Additional observations from a re-analysis of the deposited data

Results flagged for a closer look

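The 26248 rows named by a number alone, of at most 259 bases, enter no comparison and have no annotation in the sources used here. They held 15 expected counts in replicate 2 and 1 in replicate 1. The 3 counts that a count of 0 allows hold for a single row, so they give no limit for these sums.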

How the results depend on the processing

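Of 87 recomputed values, 38 stayed within bounds, 47 moved further and 2 changed sign. The bounds were 1 SD of the libraries, the 95% counting interval for ratios of the libraries, and 1.5 times for counts. The 2 sign changes concern the median level of H/ACA minus C/D RNAs (log2), 4.18 over all members, which was -4.29 among members with at least 10 counts in both libraries and -5.82 among those of 120 to 150 bases. It was 7.42 with a pseudocount of 0.1, 1.75 without division by length, 3.24 as a mean and 0 in TPM and in FPKM. In single libraries it lay between 3.64 and 4.72.

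The H/ACA share of 82.9% was 55.0% in TPM and in FPKM, 82.2% per base of length, 89.8% without the highest member of each class, 4.41% without members that overlap an exon of another gene, 82.2% without the long Snora43 model, 29.8% without members that have a near-identical copy, 30.7% at 120 to 150 bases and 32.7% without Snora73a and Snora73b. In single libraries it lay between 82.6% and 83.2%. The members with at least 10 counts in both libraries were 29, and 17 without those with a copy; single libraries gave 29 to 33.

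The ratio of replicate 2 over replicate 1 stayed negative for the summed members, the H/ACA RNAs and the C/D RNAs under each alternative. For the summed members (-0.80) it was -0.95 with TMM factors, -0.93 with DESeq2 size factors, -0.98 without the ribosomal RNA models and -0.98 scaled to protein-coding counts. It was -0.77 without the highest member, -0.94 without exon overlaps, -0.53 in TPM and -0.91 without copies. For the H/ACA RNAs (-0.79) the values in the same order were -0.94, -0.91, -0.97, -0.97, -0.74, -0.81, -0.96 and -1.05, and -0.78 without the long Snora43 model. For the C/D RNAs (-0.85) they were -1.002, -0.98, -1.03, -1.03, -0.61, -0.95 and -0.014 up to TPM. At least 2-fold lower were 8 of 27 members, where 2.97% of all genes past the same count limit were so. With TMM factors it was 13 members (4.67% of those genes). Without the ribosomal RNA models it was 14 (5.23%), and scaled to protein-coding counts 14 (5.28%). No member was at least 2-fold higher under any scaling.

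Members at TPM 0 with a count were 26 in a library and 16 in both. The median effective length of H/ACA minus C/D RNAs was 0 bases over all members and in each library. It was -2.14 among members with at least 10 counts in both, 52.0 as a mean, 3.99 as a mean without the long Snora43 model and 49 by annotated length. Where no cause is shown by how an alternative is built, the cause was not tested. No paired analysis was possible because the study has 1 group. Limits: the labels cite 1 source sample for both libraries, depth cannot show RNAs below the length at which any gene had a read, and copies and overlapping exons can share reads.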

Other observations

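Some small nucleolar RNAs lie outside the Snora and Snord symbols. The U3 RNA, a C/D box RNA that acts in cleavage of the ribosomal RNA precursor, is represented by 3 genes of 214 to 216 bases. Rnu3b1 had 26780 expected counts in replicate 2 and 65370 in replicate 1, Rnu3b3 had 26789 and 65412, and Rnu3a had 5619 and 21427. All 3 were at least 2-fold lower in replicate 2, with log2 ratios of -1.37, -1.37 and -2.01 in CPM. Of all genes with at least 50 counts in a library, 2.97% were so. Rnu3b1 and Rnu3b3 have the same length, 216 bases, and nearly the same counts in each library. Whether reads were shared between Rnu3b1 and Rnu3b3 was not tested, so their ratios are not taken as separate observations.

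Of 1346 snoRNA genes without a Snora or Snord symbol, 87 had a count and 50 had at least 10 in both libraries. Between 120 and 150 bases a count was found for 29 of 35 H/ACA members and 4 of 4 C/D members, against 70 of 815 of these unnamed genes and 32 of 568 other genes.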
